A study of Homo sapiens with 3 samples.

Results

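hsa-miR-21, the guide strand of the miR-21 hairpin, was 1 of 851 human miRNA names on arrays of RNA bound to Argonaute2 (Ago2) in Hep G2 cells, a human liver cancer cell line. It was chosen by a measured value, the difference between the arrays of cells transfected with miR-497 and with miR-195, where it stood out. Its values in that comparison and in the comparisons that share those arrays are therefore given as a description, with no test. All 3 groups were Hep G2 cells from which Ago2 was immunoprecipitated with an anti-human Ago2 antibody. The non-treated cells received no transfection, the miR-195 cells received 5 nM of a synthetic double-stranded miRNA mimicking miR-195, and the miR-497 cells received 5 nM of one mimicking miR-497. Transfected cells were collected after 24 h. As analysed here, each group was 1 array, and all 3 arrays lay on 1 slide. No array for cells transfected with a control duplex was analysed here, so the transfection procedure and the sequence of the mimic cannot be told apart in any comparison with non-treated cells. There were no replicates for any value below, which limits its precision.

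MicroRNAs are short RNAs cut from a hairpin. One strand, the guide, is held by an Argonaute protein, and its seed, bases 2 to 8 counted from its 5′ end, pairs with target mRNAs and lowers their output. The other strand, written with an asterisk, is usually discarded. miR-21 is raised in many cancers, hepatocellular carcinoma among them, and is known to repress the tumor suppressor PDCD4. An immunoprecipitate of Ago2 shows the miRNAs that the complex holds, so the level of an endogenous miRNA in it can be set beside that of a transfected duplex that enters the same protein.

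The mature sequences of miR-21, of the other human miRNA with its seed and of both transfected miRNAs are shown because seed identity sets which miRNAs share predicted targets. They are from RefSeq on GRCh38.p14, 5′ to 3′, with the seed in capitals. The names with -5p are those of RefSeq for the guide strands, and the array uses the names without it for miR-21, miR-195 and miR-497.
hsa-miR-21-5p: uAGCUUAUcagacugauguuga
hsa-miR-590-5p: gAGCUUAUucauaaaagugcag
hsa-miR-195-5p: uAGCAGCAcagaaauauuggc
hsa-miR-497-5p: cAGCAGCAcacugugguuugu

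The miR-21 guide lies at chr17:59841273-59841294 on the plus strand, at bases 8 to 29 of a hairpin of 72 bases, and the MIR21 gene overlaps the protein-coding gene VMP1. Its seed occurred in 2 of 2370 human mature names in the table used, itself and miR-590-5p (chr7:74191213-74191234, plus strand). miR-195 (chr17:7017667-7017687, minus strand) and miR-497 (chr17:7017979-7017999, minus strand) share a different seed with each other. The longest run of bases that miR-21 has in common with either is 4, against 7 with miR-590-5p.

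The array carried 2 probes for hsa-miR-21 with 8 spots each. The signal of a probe was the mean of its background-subtracted spots without outlier flags, and the signal of a miRNA was the sum of its probe signals. The SD given beside a signal or a difference comes from spots of the same array, is called spot SD, and covers technical error within an array only. Probes for different miRNAs are not calibrated against each other, so ranks and shares below describe array signal and not molecules.

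hsa-miR-21 gave the highest signal of all human miRNAs on each of the 3 arrays. Its signal was 71328 intensity units in non-treated cells (spot SD 5548), 53635 in miR-195 cells (spot SD 2735) and 37516 in miR-497 cells (spot SD 3598). The order did not change when its signal was lowered or raised by 1 spot SD. No spot on any array was saturated, and the brightest one used or flagged read 56426, 43772 and 33941 on the non-treated, miR-195 and miR-497 arrays.

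The distance from miR-21 to the next miRNA differed between arrays. In non-treated cells the next 3 were hsa-miR-363, hsa-miR-19b and hsa-miR-20b, at 17456, 16778 and 15278, and miR-21 was 4.09 times the first of them. These 3 come from the related miR-17-92 and miR-106a-363 clusters, known to promote proliferation. In miR-195 cells the transfected hsa-miR-195 itself came next at 38522, so that miR-21 was 1.39 times as bright as the mimic, and hsa-miR-20b and hsa-miR-19b followed at 15530 and 15177. In miR-497 cells the transfected hsa-miR-497 came next at 7903 and miR-21 was 4.75 times as bright, with hsa-miR-19b and hsa-miR-363 after it at 6990 and 6521. The transfected miRNAs thus stood second to miR-21 on their own arrays. In non-treated cells hsa-miR-195 read 45.3, and hsa-miR-497 read 11.8 and was not well above background.

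miR-21 made up 29.98% of the summed signal of the human miRNAs in non-treated cells (spot SD 1.66), 20.4% in miR-195 cells (spot SD 0.859) and 35.2% in miR-497 cells (spot SD 2.26). The denominator holds the mimics on the transfected arrays. With miR-195, miR-497 and their other strands left out, the share was 29.98%, 25.02% and 38.2% in the same order. The share was thus lowest in miR-195 cells and highest in miR-497 cells with and without the mimics in the sum. The order of the non-treated and miR-497 arrays turned under normexp background correction (18.6% and 15.0%) and without the brighter probe (10.9% and 10.3%). In each the non-treated share was the higher. It was so too in the software totals (23.2% and 22.5%) and in the deposited table (23.1% and 22.4%). Both of these count the miR-21 total of the miR-497 array again under the other strand of miR-21, which enlarges the sum there. Their shares without it were not computed. It took the 5 next brightest miRNAs together to exceed miR-21 in non-treated cells, 4 in miR-195 cells and 12 in miR-497 cells, mimics left out. This count was made after the values were seen.

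**Figure D1:**
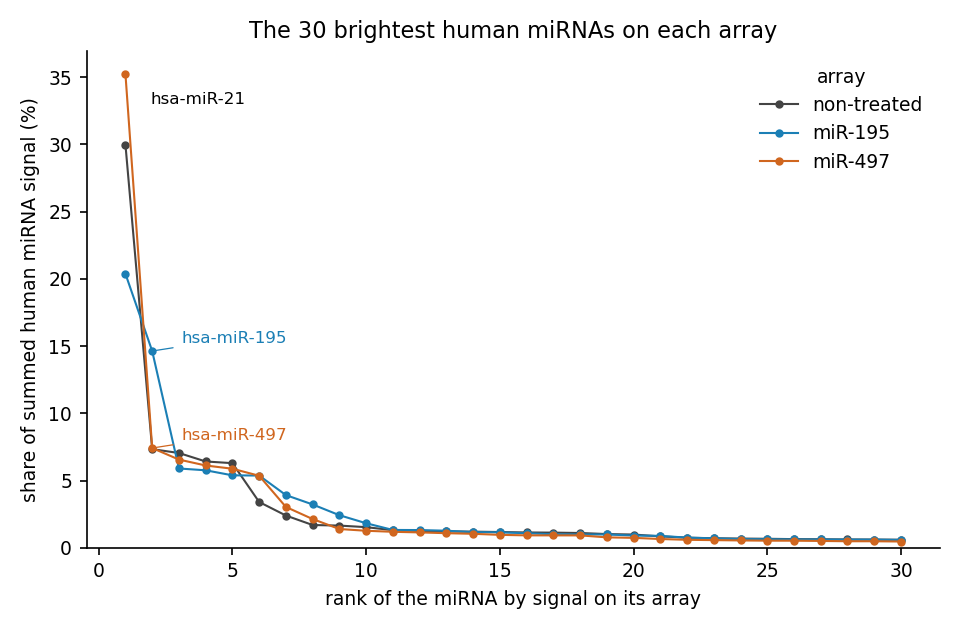
Share of the summed human miRNA signal (percent, y axis) against the rank of a miRNA on its array (x axis) for the 30 brightest human miRNAs, with 1 line per array. The first point of each line is hsa-miR-21, at 29.98% in non-treated, 20.4% in miR-195 and 35.2% in miR-497 cells, and the second point is the transfected miRNA on both transfected arrays.

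The arrays differed in brightness as a whole. The human miRNAs well above background numbered 168 in non-treated, 153 in miR-195 and 121 in miR-497 cells. Before any scaling the median human miRNA measured on both arrays was at 93.6% of its non-treated signal in miR-195 cells and at 32.5% in miR-497 cells, with 116 of 118 miRNAs dimmer in the latter. miR-21 was at 75.2% and 52.6% of its non-treated signal. In signal as scanned it was therefore highest in non-treated cells and lowest in miR-497 cells, and in miR-497 cells it was dimmer by less than the median miRNA was. Whether less Ago2-bound miRNA in the immunoprecipitate or weaker labelling or hybridisation of the array lowered the brightness was not tested. The labels give 10 ng of RNA for each array. Between both transfected arrays the median miRNA in miR-497 cells was at 34.4% of its unscaled miR-195 signal. The geometric mean of the spike-in controls, RNAs added at a set amount, was 1621, 1284 and 1275 intensity units in the order non-treated, miR-195 and miR-497. Relative to the non-treated array this mean was less dim than the median miRNA on the miR-497 array and dimmer than it on the miR-195 array. Single controls differed from the non-treated array by -0.56 to 0.04 (log2, unscaled) on the miR-195 array and by -0.58 to 0.13 on the miR-497 array. Scaling by their mean is therefore imprecise.

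For comparisons between arrays each signal was set over a scale value and converted to log2. The scale value was the 75th percentile of the 183 probes that lay well above background on every array, and it was 827, 778 and 263 intensity units on the non-treated, miR-195 and miR-497 arrays, respectively. On this scale miR-21 read 6.43, 6.11 and 7.16. The miR-497 array was the highest and the miR-195 array the lowest, the reverse of the order of these 2 arrays before scaling.

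miR-21 differed by -0.32 between miR-195 and non-treated cells (log2, spot SD 0.13), which placed it 132nd from the top of 147 human miRNAs measured on both arrays. Against that background 4 miRNAs (2.72%) were higher by 2-fold or more in miR-195 cells and 1 (0.68%) was lower by as much, and miR-21 was not among them. The 4 were hsa-miR-638, hsa-miR-1202, hsa-miR-1915 and hsa-miR-1225-5p, and the 1 was hsa-miR-363*, all named after their values were seen. Transfected miRNAs and their other strands are left out of these counts. The difference of miR-21 was -0.41 with no scaling. With spike-in scaling it was -0.076, less than its spot SD, and with quantile normalization it was 0.

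Between miR-497 and non-treated cells the scaled difference of miR-21 was 0.72 (spot SD 0.18), the 5th highest of 118, but the sign depended on the scaling: it was -0.93 with no scaling, -0.58 with spike-in scaling and -0.66 with the percentile taken over all probes. In this comparison 4 miRNAs (3.39%) were higher by 2-fold or more in miR-497 cells and 0 (0%) were lower by as much. The 4 were hsa-miR-1225-5p, hsa-miR-720, hsa-miR-1202 and hsa-miR-923_v12.0, named after their values were seen, and miR-21 was the next below them. Both comparisons use the same non-treated array.

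Between the transfected arrays, the contrast that chose it, miR-21 was 2.07-fold higher in miR-497 than in miR-195 cells after scaling (log2 difference 1.05, spot SD 0.16), but -0.52 on the log2 scale without scaling and -0.51 with spike-in scaling. It was 1 of 2 miRNAs of 117 (1.71%) higher by 2-fold or more, and 0 (0%) were lower by as much. The values just inside that threshold were 1.17 for hsa-miR-923_v12.0 and 1.05 for miR-21, and those just outside it were 0.64 for hsa-miR-374b and 0.53 for hsa-miR-29b-1*.

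Any division by 1 factor per array moves all miRNAs together, so the distance of miR-21 from the median miRNA does not depend on the factor. miR-21 lay -0.32 from the median of all measured human miRNAs between miR-195 and non-treated cells, 0.70 from it between miR-497 and non-treated cells, and 1.03 from it between both transfected arrays. With the main processing it was thus low in miR-195 cells and high in miR-497 cells relative to the other miRNAs of the same immunoprecipitate. Processing other than the factor did matter. The rank of miR-21 between miR-497 and non-treated cells went from 5 to 51 with normexp background correction and to 31 in the software totals. The dimmer of its probes alone differed by 0.28 (spot SD 0.50) in that comparison. Normexp added an offset of 50 to every spot, a larger part of a dim signal than of a bright one. The software totals use their own detection call. On the miR-497 array they also hold the miR-21 total for the other strand of miR-21. How far these moved the rank was not tested.

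**Figure D2:**
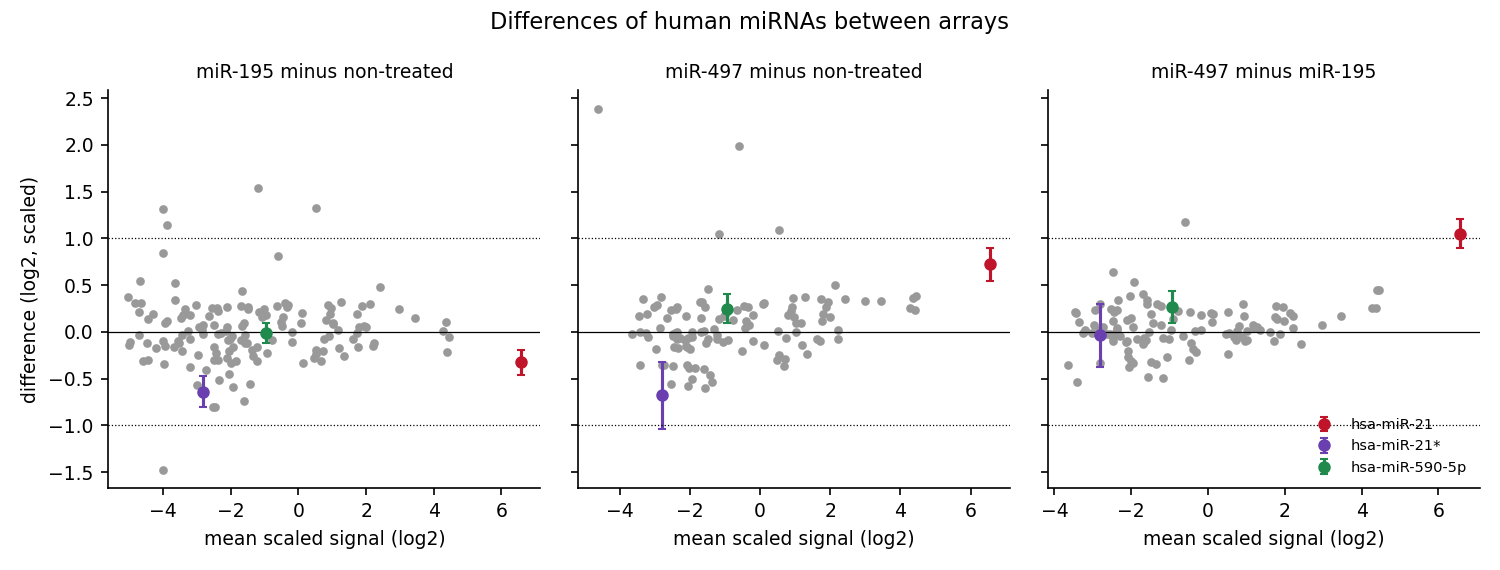
Scaled log2 difference between arrays (y axis) against the mean scaled log2 signal of a human miRNA over the 3 arrays (x axis), 1 panel per comparison, with transfected miRNAs and their other strands left out and 2-fold marked by dotted lines. hsa-miR-21 (red, bars of 1 spot SD) is the brightest point, at -0.32, 0.72 and 1.05 from left to right, of which the last pair turn negative without scaling, at -0.93 and -0.52.

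The 2 probes of miR-21 did not move by the same amount. The brighter probe, A_25_P00010975, averaged 50847 in non-treated cells over 8 spots (spot SD 4481), 38546 in miR-195 cells over 6 spots (spot SD 1068) and 29598 in miR-497 cells over 8 spots (spot SD 2664). Its used spots ran from 45250 to 56426, from 37126 to 39489 and from 26471 to 33941, with no overlap between arrays. After scaling they ran from 54.7 to 68.3, from 47.7 to 50.7 and from 100.6 to 129.0 times the scale value, again with no overlap and with the miR-497 array now on top.

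The dimmer probe, A_25_P00010976, averaged 20481 over 7 spots (spot SD 3272), 15090 over 8 spots (spot SD 2518) and 7918 over 8 spots (spot SD 2418) in the same order. Scaled, its used spots ran from 18.02 to 30.23, from 13.7 to 23.8 and from 13.9 to 40.2, so the 3 arrays overlapped. Its spots on the miR-497 array were the most uneven, with a coefficient of variation of 30.5% against 9.001% for the brighter probe there.

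The brighter probe differed by -0.31 between miR-195 and non-treated cells (log2, spot SD 0.13), by 0.87 between miR-497 and non-treated cells (spot SD 0.18) and by 1.18 between both transfected arrays (spot SD 0.14). The dimmer probe differed by -0.35 (spot SD 0.33), 0.28 (spot SD 0.50) and 0.63 (spot SD 0.50). The probes thus gave close values for miR-195 cells and unequal ones for miR-497 cells. At the 6 positions of the slide layout where the brighter probe had a used spot on both transfected arrays, the difference was between 1.03 and 1.42 and passed 2-fold at 6. At the 8 positions of the dimmer probe it was between 0.02 and 1.02 and passed 2-fold at 1. On the dimmer probe alone the difference of miR-21 was under 2-fold. Between miR-195 and non-treated cells the scaled difference was above 0 at 0 of 6 matched positions of the brighter probe and 0 of 7 of the dimmer. Between miR-497 and non-treated cells it was above 0 at 8 of 8 and 6 of 7. Positions are technical spots of the same arrays.

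**Figure D3:**
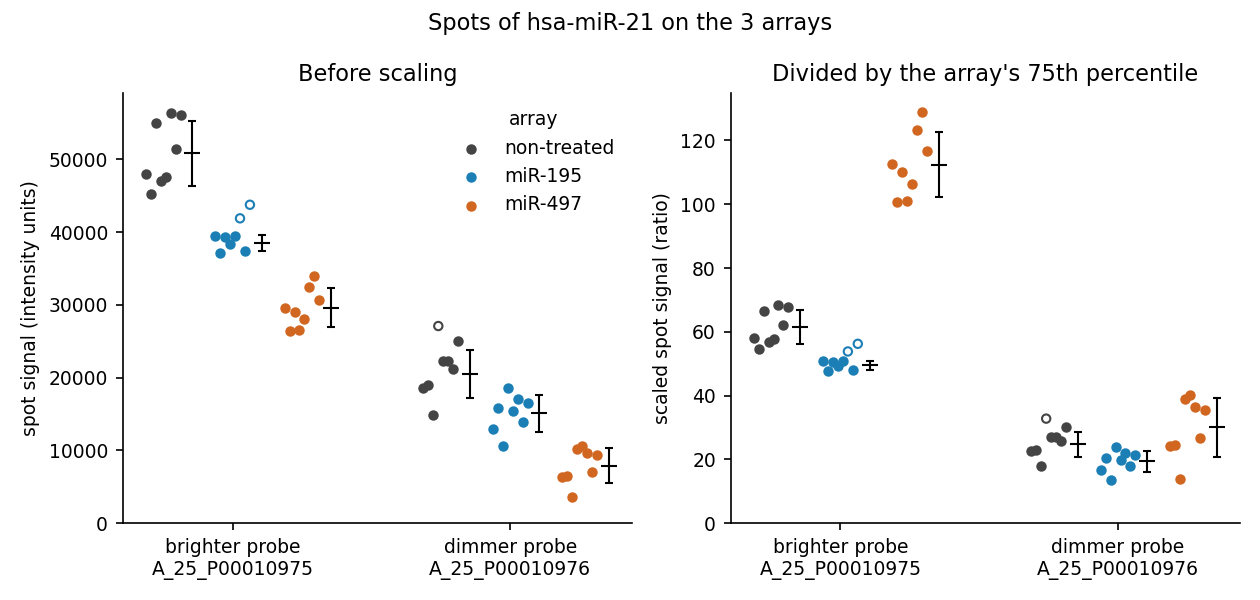
Spot signals of both hsa-miR-21 probes on the 3 arrays, in intensity units (left) and as multiples of the scale value (right), with the mean and spot SD beside each group of spots and flagged spots, not used, as open circles. For the brighter probe the miR-497 array is lowest before scaling and stands alone after it, between 100.6 and 129.0, while the scaled spots of the dimmer probe overlap on all 3 arrays.

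Whether other miRNAs showed the same gap between their probes was examined after these values were seen, in the 62 human miRNAs with at least 2 probes well above background on all 3 arrays. The log2 ratio of the brighter to the dimmer probe of a miRNA was compared between arrays, a measure in which scaling cancels. Between miR-497 and non-treated cells the ratio was larger in 54 of 62, with a median change of 0.23, and the change for miR-21 was 0.59, second to 0.97 for hsa-miR-17. Between both transfected arrays it was larger in 52, with a median of 0.10, and miR-21 at 0.55 was again second to hsa-miR-17 at 0.71. Between miR-195 and non-treated cells it was larger in 48, with a median of 0.07, and miR-21 at 0.04 was 37th. A gap that widened on the miR-497 array was therefore common to most miRNAs and was large for miR-21. Its part in the difference of miR-21 was not tested.

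**Figure D4:**
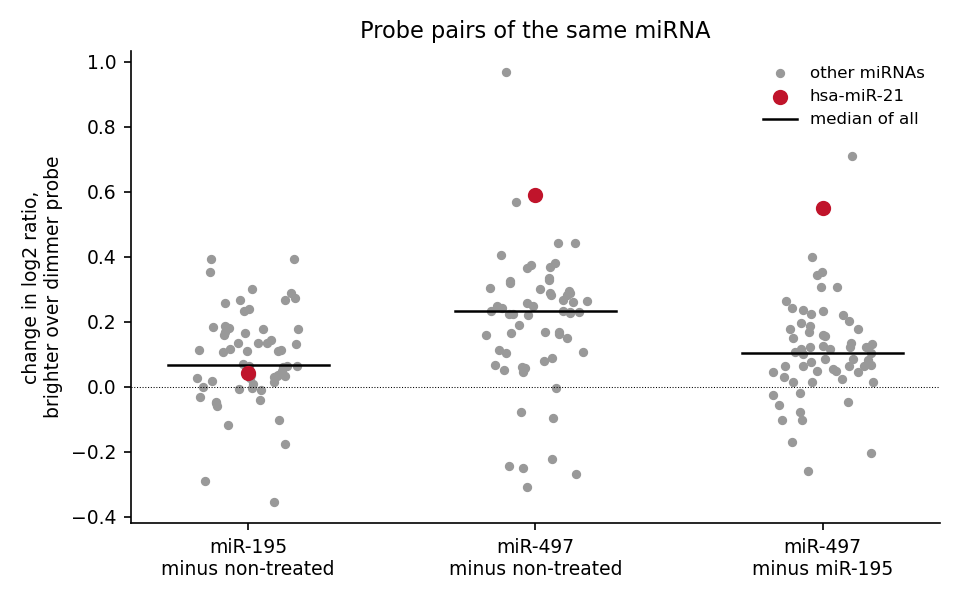
Change between arrays in the log2 ratio of the brighter to the dimmer probe of the same miRNA (y axis) for 62 human miRNAs, 1 column of points per comparison. hsa-miR-21 (red) is near the median in the first column, at 0.04, and second from the top in the others, at 0.59 and 0.55.

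Other bright miRNAs were set beside miR-21, since no other miRNA reached its signal. The 10 closest to it in mean scaled signal were all at least 2.11 log2 units dimmer. Among these, the difference between miR-497 and non-treated cells ran from -0.07 to 0.50, with a median of 0.33 and 9 of 10 above 0. Between both transfected arrays it ran from -0.13 to 0.45, with a median of 0.19 and 9 of 10 above 0, and between miR-195 and non-treated cells from -0.22 to 0.48, with a median of 0.06 and 6 of 10 above 0. These are scaled values. hsa-miR-19b was at 0.39, hsa-miR-363 at 0.23, hsa-miR-20b at 0.37 and hsa-miR-17 at 0.26 between miR-497 and non-treated cells, all under the 0.72 of miR-21. Over all measured miRNAs without miR-21, the difference correlated with the mean signal at a Pearson r of 0.14 over 117 miRNAs in that comparison (Spearman rho 0.28) and of 0.19 over 116 between both transfected arrays (rho 0.15). The points share their arrays and the mean signal contains the values that are compared, and the correlation is given as a description. The part of signal level in the difference of miR-21 was not tested.

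The 5 miRNAs whose scaled log2 values over the 3 arrays, each minus its own mean, lay closest to those of miR-21 were hsa-miR-19b, hsa-miR-363, hsa-miR-10b, hsa-miR-574-5p and hsa-miR-200b, at Euclidean distances of 0.43, 0.45, 0.46, 0.53 and 0.53 log2 units among 116 compared. miR-21 itself was at -0.13, -0.46 and 0.59 around its mean. The nearest, hsa-miR-19b, was at -0.11, -0.17 and 0.28, so it followed the same order with smaller steps.

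The other strand of the hairpin, hsa-miR-21*, read 160 intensity units in non-treated cells (spot SD 16.1), 96.7 in miR-195 cells (spot SD 5.26) and 31.8 in miR-497 cells (spot SD 7.19). It was well above background on all 3 arrays through 1 of its 2 probes, and its other probe was so in non-treated cells only. Its scaled difference was -0.64 between miR-195 and non-treated cells (spot SD 0.17), -0.68 between miR-497 and non-treated cells (spot SD 0.36), the lowest of 118, and -0.04 between both transfected arrays (spot SD 0.34). The last pair of values was 0.60 and 0.88 with normexp background correction, where the direction turned, and -2.33 and -1.60 with no scaling. The guide was 445 times as bright as the other strand in non-treated cells, 555 times in miR-195 cells and 1179 times in miR-497 cells. The log2 of that ratio changed by 0.32 (spot SD 0.21), 1.40 (spot SD 0.40) and 1.09 (spot SD 0.37) in the 3 comparisons, a measure in which scaling cancels and which was devised after the values were seen. The same ratio, of the brighter to the dimmer strand, was taken for the 12 pairs of strands of human hairpins well above background on all arrays, in some of which the guide name covers more than 1 hairpin. Between miR-497 and non-treated cells it changed by -0.41 to 1.40 with a median of 0.10, and miR-21 was the highest, followed by hsa-miR-17 at 0.86. Between both transfected arrays, the contrast that chose it, miR-21 was again the highest, beside a median of -0.06. With miR-21* at -0.04 there, this is mostly the difference that chose miR-21 seen again and no further support. Between miR-195 and non-treated cells miR-21 was 6th from the top, beside a median of 0.27. miR-21* was dimmest, and least precise, on the miR-497 array, where the ratio was highest. Background subtraction does not cancel in the ratio. With normexp background correction the guide changed by 0.53 and 0.86 in the last pair of comparisons. miR-21* then changed by 0.60 and 0.88, so the ratio did not rise there. That setting also adds an offset of 50 intensity units to every spot. The offset alone exceeds the 31.8 that miR-21* read on the miR-497 array, and its part in the turn was not tested.

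hsa-miR-590-5p, which has the seed of miR-21, was far dimmer, at 405 intensity units in non-treated cells (spot SD 15.5), 378 in miR-195 cells (spot SD 24.2) and 153 in miR-497 cells (spot SD 15.6). Its scaled differences were -0.01 (spot SD 0.11), 0.25 (spot SD 0.16) and 0.26 (spot SD 0.17) in the 3 comparisons. Its order over the arrays was that of miR-21, with the miR-497 array highest after scaling, but the miR-195 and non-treated arrays differed by less than the spot SD.

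The software that read the arrays also wrote its own total for each miRNA, and the authors' table of normalized values is the log2 of that total. For miR-21 the total was 37045, 27600 and 19918 on the non-treated, miR-195 and miR-497 arrays, equal to the sum of the totals of its own probes. For miR-21* it was 83.2 and 49.7 on the first 2, again the sum of its own probe totals, but 19933 on the miR-497 array, where its own probe totals summed to 16.9. The excess over the larger of its own probes, 19918.2, was the miR-21 total of that array to the decimal shown. In the deposited table miR-21* accordingly stood at 14.28 on the miR-497 array against 6.38 in non-treated and 5.64 in miR-195 cells, and ranked first of 851 human names there with miR-21 second. The spots of miR-21* on that array, between 0.587 and 36.1, hold no such signal.

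**Figure D5:**
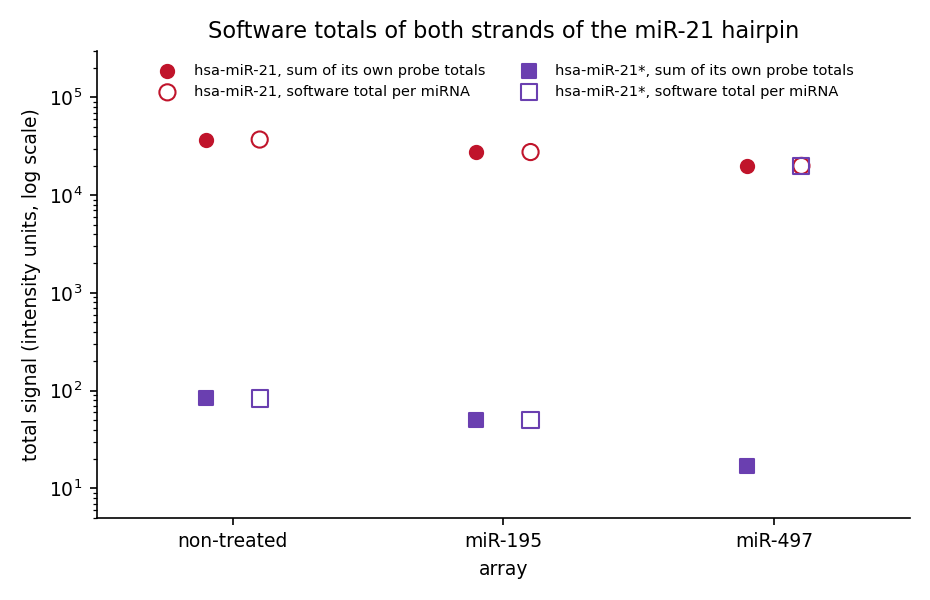
Totals of hsa-miR-21 and hsa-miR-21* on the 3 arrays (y axis, intensity units on a log scale), as the sum of the totals of their own probes (filled) and as the software total per miRNA (open). The markers of a miRNA match except for hsa-miR-21* on the miR-497 array, where its own probes sum to 16.9 and its software total is 19933, on top of that of hsa-miR-21.

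A list of 22 other miRNAs known to be raised in hepatocellular carcinoma was set beside miR-21. Of these, 17 were well above background in non-treated and in miR-195 cells and 15 in miR-497 cells, and 0 were 2-fold higher or lower in any of the 3 comparisons. Over all measured human miRNAs 2.72%, 3.39% and 1.71% were at least 2-fold higher and 0.68%, 0% and 0% at least 2-fold lower, so the count is near the background and is no result about the list. The median scaled difference was 0.05 between miR-195 and non-treated cells, 0.18 between miR-497 and non-treated cells and 0.14 between both transfected arrays, beside -0.01, 0.03 and 0.02 over all measured human miRNAs. hsa-miR-224 was at 0.28, 0.07 and -0.21, hsa-miR-151-5p at 0.19, 0.36 and 0.17, and hsa-miR-10b at -0.08, 0.32 and 0.40. hsa-miR-221, an inhibitor of the cell cycle brake p27, read 56.9 and 42.2 in non-treated and miR-195 cells and was not well above background in miR-497 cells. The whole list made up 24.0%, 20.5% and 20.4% of the human miRNA signal in non-treated, miR-195 and miR-497 cells, and miR-21 alone exceeded it in non-treated and miR-497 cells.

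Of 4 hepatocyte miRNAs used to check the cell label, hsa-miR-192 and hsa-miR-194 were well above background on all 3 arrays and hsa-miR-148a in non-treated and miR-195 cells. hsa-miR-122, the most abundant miRNA of normal hepatocytes, was not well above background on any array. Of 6 blood miRNAs, hsa-miR-142-3p and hsa-miR-142-5p were above it on all 3 arrays and hsa-miR-223, hsa-miR-451, hsa-miR-144 and hsa-miR-150 on none, and the summed level of the 6 was 1730, 1450 and 456 intensity units. Of 4 miRNAs of smooth muscle and fibroblasts hsa-miR-199a-3p was above it in non-treated cells, at 32.8, and hsa-miR-143, hsa-miR-145 and hsa-miR-214 on no array. The miRNAs of endothelium (hsa-miR-126), muscle (hsa-miR-1, hsa-miR-133a and hsa-miR-206) and neurons (hsa-miR-124 and hsa-miR-9) were above it on none.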

How the data were processed

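Ago2-bound RNA from Hep G2 cells was labelled with Cy3 and hybridised to 1-colour Agilent human miRNA arrays, 1 per group as analysed here. Sample labels gave the groups. Spot intensity was deposited by the authors as linear background-subtracted values that Agilent Feature Extraction 10.7.1.1 wrote, unscaled between arrays. A second deposited file, of log2 values made in GeneSpring, equalled the log2 of the software total per miRNA with totals under 1 set to 1 (median 0 on each array) and served as an alternative.

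Control spots and outlier-flagged spots were left out, spots of a probe were averaged, and probe means were summed per miRNA. Signals were scaled to the 75th percentile of the 183 probes well above background on every array and converted to log2. The software's flag for spots well above background had to be set in over 50% of the spots used for a probe, and for 1 probe or more of a miRNA. Spot SDs were combined over probes and carried to the log2 scale. With 1 array per group no test was made, no p-value is given, and slide and scan could not be fitted. The miRNAs named were hsa-miR-21, the other strand of its hairpin, the miRNA with its seed, its neighbours in signal order, those most like it in level or pattern, those beside the 2-fold threshold and the lists. Members, lists and naming rule were chosen with earlier results of these data known. The summary was checked on simulated spots with known changes, which came out smaller than they were made. Analyses used Python 3.11.15, pandas 2.3.3, numpy 2.4.6 and, for the normexp background correction, limma 3.58.1 in R 4.3.3. Alternatives covered scaling, background, the summary of spots and probes, detection and threshold. Sequences and GRCh38.p14 coordinates are from RefSeq tables, while the file headers name hg19, whose coordinates were not used.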

Additional observations from a re-analysis of the deposited data

Results flagged for a closer look

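After the main scaling hsa-miR-21 moved in opposite directions on the transfected arrays relative to the same non-treated array. Its scaled log2 difference was -0.32 in miR-195 cells and 0.72 in miR-497 cells. With 1 array per group the difference between them was not tested. The directions were the same, both negative, with no scaling (-0.41 and -0.93) and with spike-in scaling (-0.076 and -0.58). They were also both negative with the percentile over all probes (-0.86 and -0.66) and in the deposited table (-0.42 and -0.90), which is not scaled between arrays.

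A high value stood in the deposited table, outside the signals used for the comparisons: hsa-miR-21* was at 14.28 (log2) on the miR-497 array, against 6.38 in non-treated cells, while its own probe totals there summed to 16.9 intensity units.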

How the results depend on the processing

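No paired analysis was possible because each group held 1 array and no test was made. The values below are given for miR-195 minus non-treated, miR-497 minus non-treated and miR-497 minus miR-195, or, for single arrays, as non-treated, miR-195 and miR-497. Of the alternatives to the difference, share and ranks of hsa-miR-21, 96 stayed within the spot error, 51 moved and 3 reversed, and the cause was not tested unless named. The reversed values were the difference between both transfected arrays with no scaling (-0.52), in the deposited table (-0.47) and under spike-in scaling (-0.51). The miR-497 minus non-treated difference, which was under 2-fold and is counted as moved, also changed sign under these 3 settings and with the percentile over all probes. The deposited table holds the software totals with no scaling between arrays, so in scaling it repeats the no-scaling setting. Scaled, the software totals gave 1.08 between both transfected arrays and 0.75 for miR-497 minus non-treated. The difference moved to -0.93 for miR-497 minus non-treated with no scaling and to -0.90 in the deposited table. It was -0.076 and -0.58 in the first and second comparisons with spike-in scaling, and -0.86, -0.66 and 0.20 with the percentile over all probes, most of which were not detected. These scalings shifted the median of all miRNAs by -0.09, -1.65 and -1.56 (none), 0.25, -1.31 and -1.55 (spike-ins) and -0.54, -1.38 and -0.85 (all probes). Quantile normalization gave 0 in all 3 by construction, since miR-21 is the brightest miRNA on each array, with ranks of 42, 34 and 56. Normexp gave 0.53 and 0.86 in the last pair of comparisons, ranks of 144, 51 and 20, and shares of 18.6%, 13.1% and 15.0%, its offset being added to every probe of the denominator.

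Without the brighter probe the difference was 0.28 and 0.63 in the last pair of comparisons, under 2-fold, the share was 10.9%, 6.71% and 10.3%, and miR-21 ranked 4th on the miR-195 array. Without the dimmer probe the share was 23.4%, 15.5% and 30.02%. The software totals gave shares of 23.2%, 17.05% and 22.5%, with rank 2 on the miR-497 array. Their ranks of the difference were 161, 31 and 21. The deposited table gave shares of 23.1%, 16.99% and 22.4% with the same ranks. On the miR-497 array both settings count the miR-21 total again under hsa-miR-21*, which is in the sum and stands above miR-21. The miR-195 share was 21.3% with the mean of probes, and it was 25.02% without the transfected miRNAs, with 38.2% on the miR-497 array. The rank of the second difference was 4 when all spots had to be above background. Without the filter on dim miRNAs the ranks were 748, 595 and 503. Counts of miRNAs higher by the threshold or more ran from 0 to 124, 0 to 569 and 0 to 508 over all alternatives. Counts lower by as much ran from 0 to 40, 0 to 113 and 0 to 114. The alternatives include thresholds of 1.5-fold and 3-fold in place of 2-fold, and the 0 of the first range came from 3-fold. The difference of hsa-miR-21* stayed within the spot error in 21 alternatives and moved in 15. It was -1.18, -2.06 and -0.88 with the percentile over all probes, -2.33 and -1.60 in the last pair of comparisons with no scaling, -0.39, -1.99 and -1.59 with spike-in scaling, and -0.28, 0.60 and 0.88 with normexp. In the last pair it was 9.55 and 10.20 from the software totals and 7.90 and 8.65 in the deposited table, which hold the miR-21 total in its place on the miR-497 array. The spots used for miR-21 were all well above background and those used for miR-21* were not on every array. The last pair of differences moved with normexp for both.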
